A study of Mus musculus with 137 samples.

Results

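The data described here are the 10 TempO-Seq libraries of untreated duodenum at day 8, 5 from crypts and 5 from villi, out of 137 libraries from 71 mice in the whole series. They were chosen by their labels as the crypt and the villus library of each of mice 46, 47, 48, 49 and 50, female B6C3F1 mice that drank water with 0 ppm hexavalent chromium (Cr(VI)) for 7 days, and all 30146 probes were used. TempO-Seq counts ligated pairs of detector oligonucleotides, so each value is a number of sequencing reads for a probe to a named transcript. Crypt and villus were taken from adjacent formalin-fixed, paraffin-embedded duodenal sections of the same animal by scraping, so the remainder of a section, and not a sorted cell type, was measured. The first comparison group used below, untreated mice at day 91 (90 days of exposure), had 9 libraries with 4 crypt and villus pairs. The others were mice given 0.1 ppm Cr(VI) for 7 days (11 libraries, 5 pairs) and mice given 180 ppm for 7 days (9 libraries, 4 pairs). A library without a partner from the same mouse adds nothing to differences within mice. All groups were of the same strain and sex, with Cr(VI) supplied as sodium dichromate dihydrate in the drinking water.

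The small intestinal epithelium renews itself from stem cells at the crypt base. Their daughters divide in the crypt and then move onto the villus, where they stop dividing, mature into absorptive enterocytes or mucus-secreting goblet cells, and are shed at the tip. Paneth cells, which stay at the crypt base, secrete antimicrobial peptides, and Wnt signalling through TCF/LEF factors maintains both stem cells and Paneth cells, while enterocytes on the villus digest and take up sugars, peptides, lipids, iron and calcium.

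Levels are given as CPM, counts scaled to the effective library size,, in the order of mice 46, 47, 48, 49 and 50. Differences are log2 ratios of crypt over villus within a mouse, ± the standard error (SE), from a count model with each mouse as its own block, and a positive value is higher in the crypt. P-values were adjusted over all tested probes and a probe was called at an adjusted p under 0.1. The 10 libraries held 2405384 to 4759008 counts. The crypt library had the higher total in 4 of 5 mice (exact sign-flip permutation test, two-sided, p = 0.1875, n = 5) and the more probes detected in 4 of 5 (p = 0.3125 by the same exact test), where 0.0625 is the smallest p that 5 pairs allow.

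By a ratio of summed markers both libraries of mouse 48 lay in the crypt range and both of mouse 49 in the villus range. Not every list lost its difference in these mice. In mouse 49 the median crypt minus villus difference of log2 (CPM + 1) was 0.1 for Paneth cell products. It was 0.69 for cell division genes and 1.3 for ribosome biogenesis genes. For villus tip genes it was -0.67 in mouse 48 and -1.08 in mouse 49. The ratio of summed crypt markers (stem cell, Paneth cell and cell division genes) to summed villus markers (brush border, lipid, transporter and tip genes) was, on the log2 scale, -0.62, 0.07, -0.98, -4.47 and -1.35 in the crypt libraries and -3.61, -3.27, -1.18, -4.98 and -3.81 in the villus libraries. The other 66 crypt libraries of the series ran from -2.46 to 1.30 and the other 61 villus libraries from -7.22 to -2.17. The library labelled villus of mouse 48 thus lay inside the crypt range and above every other villus library. The library labelled crypt of mouse 49 lay inside the villus range and below every other crypt library. Because CPM were summed, abundant lists weigh most in this ratio. In the crypt of mouse 46, Paneth cell products summed to 40144 CPM, stem cell genes to 1220 and cell division genes to 2067. Lipid genes summed there to 39182 CPM, hydrolases to 12801, brush border structure to 10022, transporters to 3442 and tip genes to 1073. Across 26365 probes the library labelled villus of mouse 48 correlated at r = 0.922 with the mean of the crypt libraries of mice 46, 47 and 50 and at 0.897 with the mean of 4 villus libraries of the other mice, and the library labelled crypt of mouse 49 correlated at 0.889 with crypt and 0.893 with villus libraries of other mice, as a description. The villus library of mouse 50 was also slightly nearer to crypt (0.904) than to villus libraries (0.902), and the other 7 libraries were nearer to their own compartment. All 10 libraries stayed in the main comparison, and results are followed by their values without mice 48 and 49, called the 3 mice. Because mice 48 and 49 stood apart on marker genes, the values of these markers without them are not independent of that choice.

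**Figure D1:**
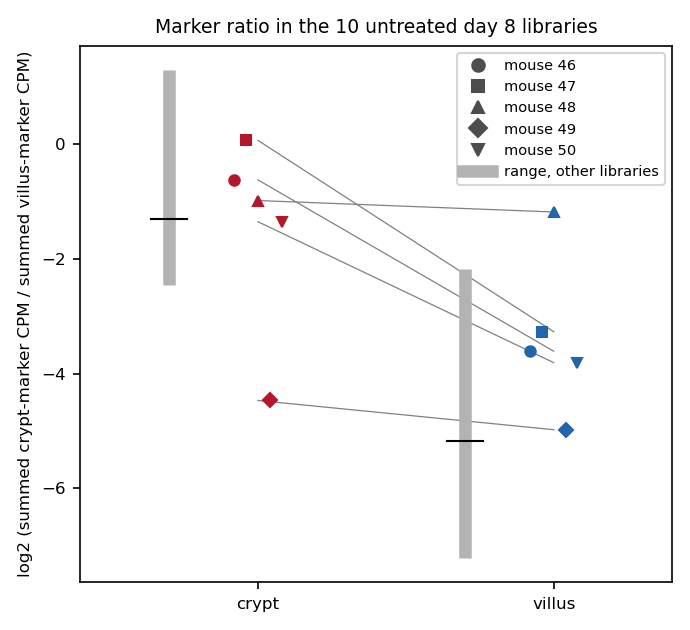
The vertical axis is the log2 ratio of summed CPM of crypt markers to villus markers, and each symbol is a library, with lines joining both libraries of each animal. Grey bars span the other 66 crypt and 61 villus libraries of the series, with their medians as black lines. The library labelled villus of mouse 48 (-1.18) lies above the villus bar and the library labelled crypt of mouse 49 (-4.47) lies below the crypt bar.

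In the 5 mice 978 of 26365 probes were called (3.71%), for 881 genes, of which 483 had more signal in crypt libraries and 398 in villus libraries. With the 6 libraries of mice 46, 47 and 50 in place of the 10, 1328 of 27356 probes were called (4.85%), for 1163 genes, 737 toward the crypt and 426 toward the villus. Of the 978 probes, 813 (83.1%) were also called in the 3 mice, which is 61.2% of the 1328, and all 813 kept their direction. Without the mouse block, as unpaired groups, 164 genes were called by edgeR and 664 by DESeq2. The edgeR count was 1636 when the library labelled villus of mouse 48 and that labelled crypt of mouse 49 were also left out. Of 98 genes named here, 50 lost their call without the block and 42 with mouse as a random block of estimated correlation (limma). With each gene taken by the probe of highest total count, 434 genes (2.28% of 18998) were higher in the crypt and 362 (1.91%) in the villus, and the shares in the 3 mice were 3.43% and 2.02%. In either direction the shares were 4.19% in the 5 mice and 5.45% in the 3, and the counts of the gene lists below are to be read against these. Leaving out a single mouse gave 532 genes without mouse 46, 241 without mouse 47, 1233 without mouse 48, 842 without mouse 49 and 499 without mouse 50. Of the 8 compartment markers that the study itself named, which is no independent evidence of direction, 5 were called in the crypt and 2 in the villus (6 and 2 in the 3 mice). The median log2 difference over all genes was 0.07 in the 5 mice and 0.18 in the 3 mice.

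Products of Paneth cells were higher in the crypt in the mice whose compartments separated. Of 20 genes listed 17 had a probe and all 17 were tested, of which 11 were higher in the crypt and 0 in the villus, with a median log2 difference of 1.05. In mice 46, 47 and 50 the count was 13 of 17 and the median 1.87. As unpaired groups none of the 17 passed. The summed level of the list was 40144, 45568, 22660, 3740 and 14422 CPM in the crypts and 7566, 12028, 27288, 3375 and 6374 CPM in the villi. The crypt exceeded the villus in mice 46, 47, 49 and 50 and fell short of it in mouse 48. In bulk tissue, fewer cells of a type and less RNA per cell cannot be told apart.

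The α-defensins, which are microbicidal peptides of Paneth cell granules, sit in 1 gene cluster on chromosome 8. The promoters of several Paneth genes are shown because they share a TCF/LEF motif. Each line is 60 bases upstream of the transcription start on GRCm38.p6 from RefSeq, 5′ to 3′ on the strand of the gene, with the motif CTTTGAT or its reverse complement ATCAAAG in capitals.
Defa22 (chr8:21162138-21162197, plus strand): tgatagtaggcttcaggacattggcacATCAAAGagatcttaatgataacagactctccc
Defa22 (chr8:21162178-21162237, plus strand): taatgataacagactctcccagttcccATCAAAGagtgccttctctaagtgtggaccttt
Defa23 (chr8:21054899-21054958, plus strand): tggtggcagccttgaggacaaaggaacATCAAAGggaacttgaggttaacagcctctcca
Defa23 (chr8:21054939-21054998, plus strand): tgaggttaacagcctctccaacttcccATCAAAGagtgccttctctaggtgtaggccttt
Defa30 (chr8:21134481-21134540, plus strand): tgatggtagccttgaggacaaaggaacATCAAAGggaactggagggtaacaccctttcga
Mmp7 (chr9:7692091-7692150, plus strand): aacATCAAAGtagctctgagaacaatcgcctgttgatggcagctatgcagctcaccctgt

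Counting both strands of the 300 bases from 250 before to 50 after the start, the motif was present in 5 of 11 Paneth genes with a promoter in the table (45.5%) and in 4.29% of 27025 genes. The 5 were Defa21, Defa22, Defa23, Defa30 and Mmp7, and the 4 defensins among them are related by gene duplication, so they are not independent. Among other lists the motif was in 1 of 12 stem cell and Wnt target genes (8.33%) and 2 of 29 cell division genes (6.9%). It was in 3 of 15 brush border hydrolase genes (20.0%) and 0 of 16 lipid absorption genes, so it did not mark the crypt lists as a whole. In all 12 motifs were searched in these promoters, and a match describes letters only. The windows of Defa21 and Defa22 were identical in all 300 bases, and near-identical copies of this kind may exchange reads, so the values of single α-defensins are uncertain.

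Defa30 measured 4116, 6869, 3946, 695 and 3144 CPM in the crypts and 1180, 1089, 3588, 442 and 1227 CPM in the villi. Every crypt exceeded the villus of its mouse, and in mouse 48 only slightly. The log2 difference was 1.33 ± 0.199, adjusted p = 2.99e-08, and 2.01 ± 0.245, adjusted p = 6.96e-13 in the 3 mice. Defa23, another α-defensin, gave 1.31 ± 0.206, adjusted p = 1.7e-07, and 1.99, adjusted p = 6.66e-12, in the 3 mice, and Defa3 gave 1.3 ± 0.217, adjusted p = 1.3e-06, and 1.9, adjusted p = 5.99e-10, in the 3 mice. Lyz1, the lysozyme of Paneth cells (GRCm38 chr10:117287797-117292868), measured 3625, 4389, 2255, 335 and 1453 CPM in the crypts and 760, 1122, 2430, 342 and 660 CPM in the villi. The 2 libraries of mouse 48 were alike at the crypt level and those of mouse 49 alike at the villus level. Its difference was 1.07 ± 0.202, adjusted p = 4.28e-05, rising to 1.86 ± 0.246, adjusted p = 4.74e-11 in the 3 mice. Mmp7, the protease that activates α-defensins, measured 861, 1224, 518, 73.1 and 289 CPM against 237, 304, 583, 45.1 and 118 CPM (1.18 ± 0.222, adjusted p = 3.81e-05, and 1.81, adjusted p = 8.87e-09, in the 3 mice). Pla2g2a, a secreted antibacterial phospholipase, (1.16 ± 0.221, adjusted p = 5.09e-05, and 1.97, adjusted p = 5.79e-11, in the 3 mice) and Mptx2, a mucosal pentraxin, (1.43 ± 0.283, adjusted p = 0.000121, and 2.3, adjusted p = 1.12e-07, in the 3 mice) were also higher in the crypt. Defa22 measured 13766, 13584, 6389, 904 and 3273 CPM in the crypts and 2129, 3725, 8350, 845 and 1644 CPM in the villi, with a difference of 1.05 ± 0.2, adjusted p = 4.8e-05, and 1.92, adjusted p = 4.94e-12, in the 3 mice. Defa5 was sparse, at 11.7, 29.3, 6.77, 0 and 19.7 CPM and 7.65, 0, 20, 0 and 6.48 CPM, and its difference of 1.01 ± 0.547, adjusted p = 0.521 did not pass, whereas it passed in the 3 mice (2.18 ± 0.694, adjusted p = 0.046). Wnt3, a Wnt ligand made by Paneth cells, reached at most 8.29 CPM and did not pass (adjusted p = 0.9).

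Among 20 stem cell and Wnt target genes 6 were higher in the crypt and 0 in the villus, with a median log2 difference of 0.85 (1.44 and again 6 genes in the 3 mice; 0 genes as unpaired groups). Olfm4, a secreted stem cell marker, measured 254, 375, 245, 60.2 and 173 CPM in the crypts and 84.9, 117, 283, 35.3 and 84.2 CPM in the villi. The crypt was higher in mice 46, 47, 49 and 50 (0.96 ± 0.235, adjusted p = 0.00422, and 1.5, adjusted p = 3.19e-05, in the 3 mice). Ephb2, the receptor that keeps progenitors in the crypt, measured 110, 73.2, 103, 25.9 and 30 CPM and 15.3, 7.38, 63.1, 26.8 and 18.7 CPM (1.36 ± 0.316, adjusted p = 0.00201; 2.21 ± 0.433, adjusted p = 5.52e-05 in the 3 mice). The groups of all 5 mice overlapped for both genes and those of the 3 mice did not. Slc12a2, the sodium, potassium and chloride cotransporter of secreting crypt cells (1.28 ± 0.285, adjusted p = 0.00101, and 1.67, adjusted p = 0.000353, in the 3 mice), Smoc2, a matrix protein of stem cells (0.98 ± 0.259, adjusted p = 0.0116, and 1.63, adjusted p = 9.42e-05, in the 3 mice), and Axin2, a Wnt feedback inhibitor (0.8 ± 0.228, adjusted p = 0.0248, and 1.16, adjusted p = 0.00356, in the 3 mice), were called as well. Lgr5, the stem cell receptor for R-spondins, was near the limit of counting, at 6.29, 2.23, 6.16, 0 and 2.47 CPM and 0, 0, 9.98, 0 and 0.72 CPM, where 3 counts were worth 0.569 to 1.28 CPM, and a difference was not detectable (adjusted p = 0.908).

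Cell division and DNA replication genes followed the same order, with 14 of 38 higher in the crypt, 0 higher in the villus and a median of 0.97 (17 of 38 and 1.2 in the 3 mice; 1 of 38 as unpaired groups). Top2a, the topoisomerase of dividing cells, measured 191, 185, 171, 80.1 and 123 CPM in the crypts and 18.5, 50.6, 205, 16.2 and 54.2 CPM in the villi. The library labelled villus of mouse 48 held the highest of the 10 values, while in mouse 49 the crypt stood well above the villus (1.38 ± 0.258, adjusted p = 2.98e-05; 2.02 ± 0.326, adjusted p = 2.63e-07 in the 3 mice). Rrm1, a subunit of ribonucleotide reductase, did not overlap between the compartments in all 5 mice, at 160, 115, 144, 96.1 and 134 CPM against 32.6, 40.2, 90.9, 34 and 70.8 CPM (1.29 ± 0.255, adjusted p = 0.000122, and 1.56, adjusted p = 0.000186, in the 3 mice). Kif20a, a kinesin of cytokinesis (1.49 ± 0.311, adjusted p = 0.000322, and 1.67, adjusted p = 0.00134, in the 3 mice), and Cdc20, an activator of mitotic exit (1.37 ± 0.32, adjusted p = 0.00218, and 2.4, adjusted p = 5e-06, in the 3 mice), were called too. Pcna, the sliding clamp of DNA polymerase, measured 56, 139, 121, 85.8 and 180 CPM and 59.2, 50.6, 99.5, 35.3 and 96.5 CPM, with the villus marginally higher in mouse 46 (0.77 ± 0.253, adjusted p = 0.0752, and 0.91, adjusted p = 0.0918, in the 3 mice). Mki67, a marker of cycling cells, did not pass in the 5 mice (0.75 ± 0.326, adjusted p = 0.288) and passed in the 3 (1.22 ± 0.407, adjusted p = 0.0669). Of 43 tested replication-dependent histone genes, a list added after the values were seen, 19 were higher in the crypt and 0 in the villus (23 of 44 in the 3 mice; 1 as unpaired groups). Hist1h3c, a histone H3 gene, measured 125, 186, 204, 66.8 and 253 CPM and 59.6, 12.1, 137, 0 and 117 CPM.

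The E2F motif TTTGGCGC, searched on both strands, lay in 4 of 29 cell division promoters (13.8%) and in 0.585% of all promoters, and the CCAAT box in 23 of 29 (79.3%) against 41.1%. The promoter of Mcm6, a subunit of the replicative helicase, is shown because it holds the E2F motif at 2 places upstream of its start, in capitals in 40 bases each. Mcm6 itself was not called in the 5 mice (0.44 ± 0.237, adjusted p = 0.522, and 0.85, adjusted p = 0.0818, in the 3 mice).
Mcm6 (chr1:128359792-128359831, minus strand): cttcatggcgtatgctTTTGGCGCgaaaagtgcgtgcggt
Mcm6 (chr1:128359729-128359768, minus strand): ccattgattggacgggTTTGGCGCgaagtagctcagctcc

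Genes of the protein synthesis machinery were higher in the crypt. Of 80 tested cytosolic ribosomal protein genes 56 were higher in the crypt and 0 in the villus, with a median of 0.78 (60 of 80 and 1.13 in the 3 mice; 7 as unpaired groups). Their summed level was 29712, 31539, 31149, 15718 and 28568 CPM in the crypts and 12434, 12251, 29763, 10253 and 17178 CPM in the villi. The villus libraries of mice 46, 47, 49 and 50 lay under the crypt libraries of mice 46, 47, 48 and 50, and the library labelled villus of mouse 48 lay among those crypts. Rpl34, a protein of the large subunit, measured 696, 876, 785, 489 and 771 CPM and 269, 227, 606, 396 and 370 CPM (1.0 ± 0.202, adjusted p = 0.000165, and 1.52, adjusted p = 8.4e-07, in the 3 mice). Rpl6, also of the large subunit, gave 1.0 ± 0.206, adjusted p = 0.000247, and 1.32, adjusted p = 3.64e-05, in the 3 mice. Many ribosomal protein genes have processed pseudogenes, so which copy a probe reads is uncertain. Among 30 ribosome biogenesis genes 9 were higher in the crypt and 0 in the villus, with a median of 0.86 (10 of 30 and 1.04 in the 3 mice; 1 as unpaired groups). Nop56, a core protein of small nucleolar ribonucleoproteins, measured 122, 104, 144, 59.8 and 117 CPM and 52.3, 22.8, 74.2, 15.3 and 39.1 CPM. In each of the 5 mice the crypt was higher (1.49 ± 0.272, adjusted p = 1.92e-05, and 1.7, adjusted p = 9.22e-05, in the 3 mice). Npm1, a nucleolar chaperone (1.15 ± 0.242, adjusted p = 0.000386, and 1.48, adjusted p = 0.000122, in the 3 mice), and Fbl, the methyltransferase that modifies ribosomal RNA (0.98 ± 0.212, adjusted p = 0.000686, and 1.48, adjusted p = 5.77e-06, in the 3 mice), were called. By contrast 0 of 79 oxidative phosphorylation subunits passed in either direction, and their median was 0.12. The E-box CACGTG, counted once since it reads the same on both strands, was in 5 of 26 ribosome biogenesis promoters (19.2%) and in 8.09% of all. It was as frequent in lists not higher in the crypt, with 5 of 24 nutrient transporters (20.8%) and 3 of 10 cholesterol synthesis genes (30.0%). Other crypt lists had 1 of 29 cell division genes (3.45%) and 1 of 12 stem cell and Wnt target genes (8.33%).

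**Figure D2:**
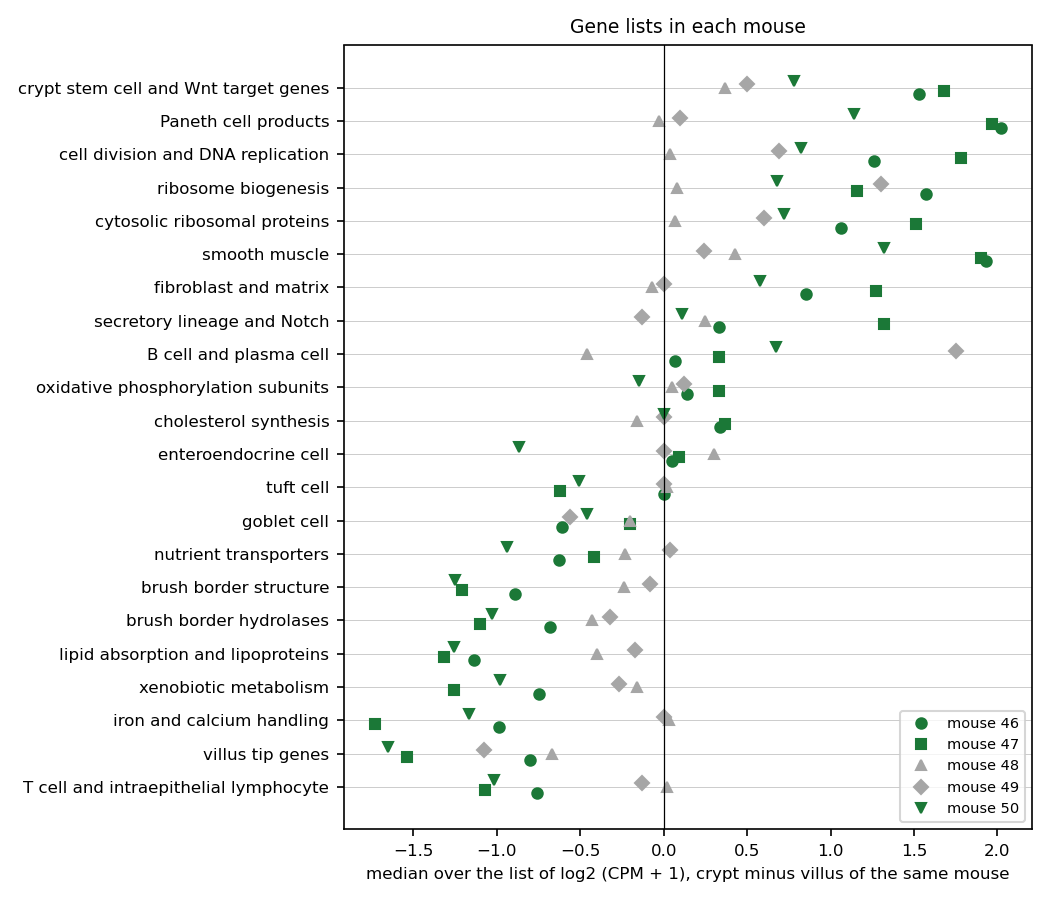
Each symbol is the median over a gene list of log2 (CPM + 1) in the crypt minus that in the villus of the same mouse, with mice 48 and 49 in grey and mice 46, 47 and 50 in green. Paneth cell products had medians of 2.02 and 1.97 in mice 46 and 47 and -0.03 and 0.1 in mice 48 and 49, and villus tip genes were below 0 in all 5 mice.

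Lipid absorption genes were higher in the villus. Of 21 genes 11 were higher in the villus and 0 in the crypt, with a median of -0.76 (14 of 21 and -1.19 in the 3 mice; 4 as unpaired groups). Apoa4, an apolipoprotein of chylomicrons (chr9:46240696-46243459), measured 2097, 2582, 1695, 7353 and 4870 CPM in the crypts and 12147, 14048, 3489, 20777 and 22444 CPM in the villi. In every mouse the villus was higher, and the crypt minus villus difference of log2 (CPM + 1) was -1.04 and -1.5 in mice 48 and 49 (-1.95 ± 0.194, adjusted p = 7.54e-20 over the 5 mice; -2.32 ± 0.239, adjusted p = 4.24e-18 in the 3). Apoa1, the main protein of high-density lipoprotein, measured 6003, 3915, 3789, 13366 and 2950 CPM and 13909, 21839, 5306, 17112 and 10078 CPM (-1.26 ± 0.193, adjusted p = 7.74e-08, and -1.75, adjusted p = 2.01e-10, in the 3 mice). Apoc2, the cofactor of lipoprotein lipase (-1.51 ± 0.205, adjusted p = 3.69e-10, and -1.86, adjusted p = 3.53e-10, in the 3 mice), Npc1l1, the cholesterol importer (-1.31 ± 0.223, adjusted p = 3.03e-06, and -1.47, adjusted p = 3.05e-05, in the 3 mice), and Cd36, a fatty acid receptor (-1.52 ± 0.334, adjusted p = 0.000813, and -2.42, adjusted p = 2.1e-05, in the 3 mice), were called in the same direction.

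Brush border genes were higher in the villus for 7 of 13 structural proteins and 8 of 18 hydrolases, with 0 of either higher in the crypt and medians of -0.69 and -0.71 (9 of 13 and 9 of 18 in the 3 mice; 2 and 1 as unpaired groups). Krt20, a keratin of mature enterocytes, measured 626, 478, 396, 1203 and 483 CPM and 1811, 3081, 671, 2650 and 2290 CPM. The villus was higher in all 5 mice, although the library labelled crypt of mouse 49 stood above the library labelled villus of mouse 48 (-1.68 ± 0.199, adjusted p = 1.38e-13, and -2.09, adjusted p = 2.72e-13, in the 3 mice). Vil1, the actin bundler villin, measured 5870, 4261, 4833, 8910 and 3127 CPM and 8265, 9825, 5084, 8577 and 7352 CPM and did not separate in mice 48 and 49 (-0.59 ± 0.188, adjusted p = 0.0603; -0.91 ± 0.232, adjusted p = 0.00528 in the 3 mice). Cdhr5, a cadherin that links microvilli (-0.98 ± 0.197, adjusted p = 0.000147, and -1.23, adjusted p = 9.35e-05, in the 3 mice), was called. Among the hydrolases, Treh, which splits trehalose (-1.16 ± 0.213, adjusted p = 2.11e-05, and -1.58, adjusted p = 1.17e-06, in the 3 mice), Mme, the peptidase neprilysin (-1.06 ± 0.198, adjusted p = 2.93e-05, and -1.43, adjusted p = 2.02e-06, in the 3 mice), and Alpi, intestinal alkaline phosphatase (-0.76 ± 0.193, adjusted p = 0.00761, and -1.16, adjusted p = 0.000154, in the 3 mice), were higher in the villus as well.

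The HNF4 motif CAAAGTCCA, searched on both strands, was in the promoters of 2 of 15 hydrolase genes (13.3%) and 2 of 24 xenobiotic metabolism genes (8.33%), in 0 of 16 lipid absorption genes, in 1 of 11 Paneth genes (9.09%) and in 0.555% of all. The 4 windows are shown because all 4 genes were called in the villus. Each is 40 bases upstream of the start with the motif or its reverse complement in capitals.
Alpi (chr1:87101607-87101646, minus strand): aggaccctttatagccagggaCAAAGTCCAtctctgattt
Treh (chr9:44673146-44673185, plus strand): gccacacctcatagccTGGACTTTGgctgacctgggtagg
Cyp3a11 (chr5:145879940-145879979, minus strand): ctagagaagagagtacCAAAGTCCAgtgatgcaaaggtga
Cyp2c65 (chr19:39060874-39060913, plus strand): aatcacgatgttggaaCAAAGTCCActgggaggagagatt

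Nutrient transporters were called less evenly, with 5 of 25 higher in the villus, 1 higher in the crypt and a median of -0.46 (7 and 1 in the 3 mice; 1 and 0 as unpaired groups). Slc6a19, the neutral amino acid transporter, measured 258, 163, 158, 559 and 134 CPM and 649, 677, 186, 685 and 471 CPM (-1.16 ± 0.211, adjusted p = 1.77e-05, and -1.66, adjusted p = 1.47e-07, in the 3 mice). The high value of the library labelled crypt of mouse 49 lay among the villi of the other mice. Slc46a1, the folate transporter (-1.16 ± 0.29, adjusted p = 0.00584, and -1.65, adjusted p = 0.000267, in the 3 mice), was called, and Slc5a1, the sodium-glucose cotransporter, passed in the 3 mice (-0.98 ± 0.236, adjusted p = 0.00253) but not in the 5 (-0.49 ± 0.192, adjusted p = 0.192). The member higher in the crypt was Slc1a1, an acidic amino acid transporter (1.09 ± 0.365, adjusted p = 0.0819, and 1.9, adjusted p = 0.00565, in the 3 mice), whose call was lost in 16 alternative fits and kept in 5.

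Iron and calcium genes had a median of -1.04 (-0.61 without mouse 47), with 7 of 12 higher in the villus and 1 in the crypt (-1.38, 8 and 1 in the 3 mice; 3 and 0 as unpaired groups). Slc40a1, the iron exporter ferroportin, measured 86.9, 103, 100, 241 and 128 CPM and 460, 513, 57.7, 238 and 381 CPM. The library labelled villus of mouse 48 held less than any crypt library, and the 2 libraries of mouse 49 were level (-1.2 ± 0.227, adjusted p = 4.97e-05; -2.0 ± 0.275, adjusted p = 3.12e-10 in the 3 mice). Cybrd1, the ferric reductase of the brush border, measured 0, 2.83, 0, 0 and 0.569 CPM and 28.6, 33.9, 0, 0 and 10.3 CPM. It was seen in the villi of mice 46, 47 and 50 and was at 0 in both libraries of mice 48 and 49 (-4.19 ± 0.904, adjusted p = 0.000471, and -4.14, adjusted p = 0.000372, in the 3 mice). S100g, the calcium binder calbindin-D9k, measured 2245, 1223, 396, 1512 and 668 CPM and 5042, 10142, 380, 2005 and 2929 CPM (-1.35 ± 0.203, adjusted p = 3.07e-08, and -2.04, adjusted p = 6.96e-13, in the 3 mice), and Trpv6, the apical calcium channel, 16.2, 2.02, 10.8, 4.99 and 5.12 CPM and 74.9, 117, 3.24, 11.5 and 42 CPM (-2.7 ± 0.443, adjusted p = 7.65e-07, and -3.37, adjusted p = 1.04e-08, in the 3 mice). In mouse 48 Trpv6 was higher in the library labelled crypt, the reverse of the other mice. Tfrc, the transferrin receptor of dividing cells, went the other way, at 273, 199, 202, 41.2 and 50.3 CPM and 58.8, 64.4, 227, 5.96 and 30.7 CPM (1.15 ± 0.26, adjusted p = 0.00132, and 1.65, adjusted p = 4.76e-05, in the 3 mice).

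Genes of the villus tip were lower in the crypt in all 5 mice by their median difference of log2 (CPM + 1), which was -0.67 in mouse 48 and -1.08 in mouse 49. Of 6 genes 3 were called in the villus, with a fitted median of -0.79 (-1.26 without mouse 49; 3 of 6 and -1.36 in the 3 mice; 2 as unpaired groups). Ada, adenosine deaminase (chr2:163726584-163750239), measured 9.58, 4.25, 0.616, 8.64 and 16.3 CPM in the crypts and 109, 99.9, 3.78, 183 and 150 CPM in the villi. The villus was higher in 5 of 5 mice (-3.75 ± 0.366, adjusted p = 1.17e-20, and -3.52, adjusted p = 1.69e-13, in the 3 mice), although the 0.616 CPM in the crypt of mouse 48 was under the 0.923 CPM that 3 counts were worth there. Klf4, a transcription factor of differentiated epithelium, measured 24.9, 29.5, 15.1, 60.8 and 33.2 CPM and 97.8, 113, 28.6, 120 and 97.7 CPM (-1.51 ± 0.286, adjusted p = 4.43e-05, and -1.73, adjusted p = 0.000112, in the 3 mice).

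Xenobiotic metabolism genes were called in the villus for 13 of 26 and in the crypt for 0, with a median of -0.81 (13 of 26 and -0.87 in the 3 mice; 2 as unpaired groups). Cyp3a11, a cytochrome P450 that oxidizes many drugs, measured 149, 80.7, 63.7, 162 and 68.5 CPM and 403, 714, 124, 520 and 365 CPM. The villus was higher in 5 of 5 mice (-1.97 ± 0.225, adjusted p = 9.79e-15, and -2.26, adjusted p = 1.83e-12, in the 3 mice). Cyp3a13 (-1.35 ± 0.209, adjusted p = 1.08e-07, and -1.72, adjusted p = 3.05e-08, in the 3 mice) and Cyp2c55 (-1.64 ± 0.271, adjusted p = 1e-06, and -1.66, adjusted p = 0.000217, in the 3 mice), of the same superfamily, were also called. Members of the Cyp3a family are close in sequence, so reads may be shared among them. Of 4 gluconeogenesis genes 1 was called, in the villus, with a median of -0.36 (1 and -0.87 in the 3 mice; 0 as unpaired groups). The list median of log2 (CPM + 1) differences was 0.59 in mouse 48 and 0.87 in mouse 49, toward the crypt. The gene called was Pck1, the first committed enzyme of gluconeogenesis. It measured 267, 109, 221, 976 and 350 CPM and 959, 426, 334, 1050 and 956 CPM (-1.18 ± 0.209, adjusted p = 7.07e-06, and -1.67, adjusted p = 1.12e-07, in the 3 mice).

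Of 20 epithelial transcription factors 2 were called, both higher in the villus, against a median of -0.21. These were Gata6, a zinc finger factor of the gut, at 32.6, 29.9, 64.3, 56.2 and 46.9 CPM and 102, 120, 37.8, 65.9 and 128 CPM (-0.97 ± 0.272, adjusted p = 0.0204, and -1.61, adjusted p = 0.000219, in the 3 mice), and Nr1i2, the pregnane X receptor (-0.72 ± 0.227, adjusted p = 0.0572, and -0.83, adjusted p = 0.0792, in the 3 mice). Hnf4a, a nuclear receptor of enterocyte genes, was not (-0.24 ± 0.221, adjusted p = 0.822, and -0.59, adjusted p = 0.309, in the 3 mice). Among the immediate early genes 1 of 12 was called in the villus, the transcription factor subunit Jun (-1.32 ± 0.297, adjusted p = 0.00122, and -1.81, adjusted p = 0.000102, in the 3 mice), and 0 of 18 hedgehog and BMP pathway genes did. The tight junction and keratin list split by member, with Cldn2, a cation pore (1.0 ± 0.257, adjusted p = 0.00783, and 1.31, adjusted p = 0.0029, in the 3 mice), and Krt19 (0.98 ± 0.207, adjusted p = 0.000434, and 1.31, adjusted p = 0.0001, in the 3 mice) higher in the crypt and Cldn4, a sealing claudin (-2.98 ± 0.618, adjusted p = 0.000272, and -5.36, adjusted p = 1.39e-05, in the 3 mice), higher in the villus. Cholesterol synthesis had 2 of 17 genes higher in the crypt (1 in the 3 mice) and fatty acid oxidation 2 of 14 higher in the villus (1 in the 3 mice).

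**Figure D3:**
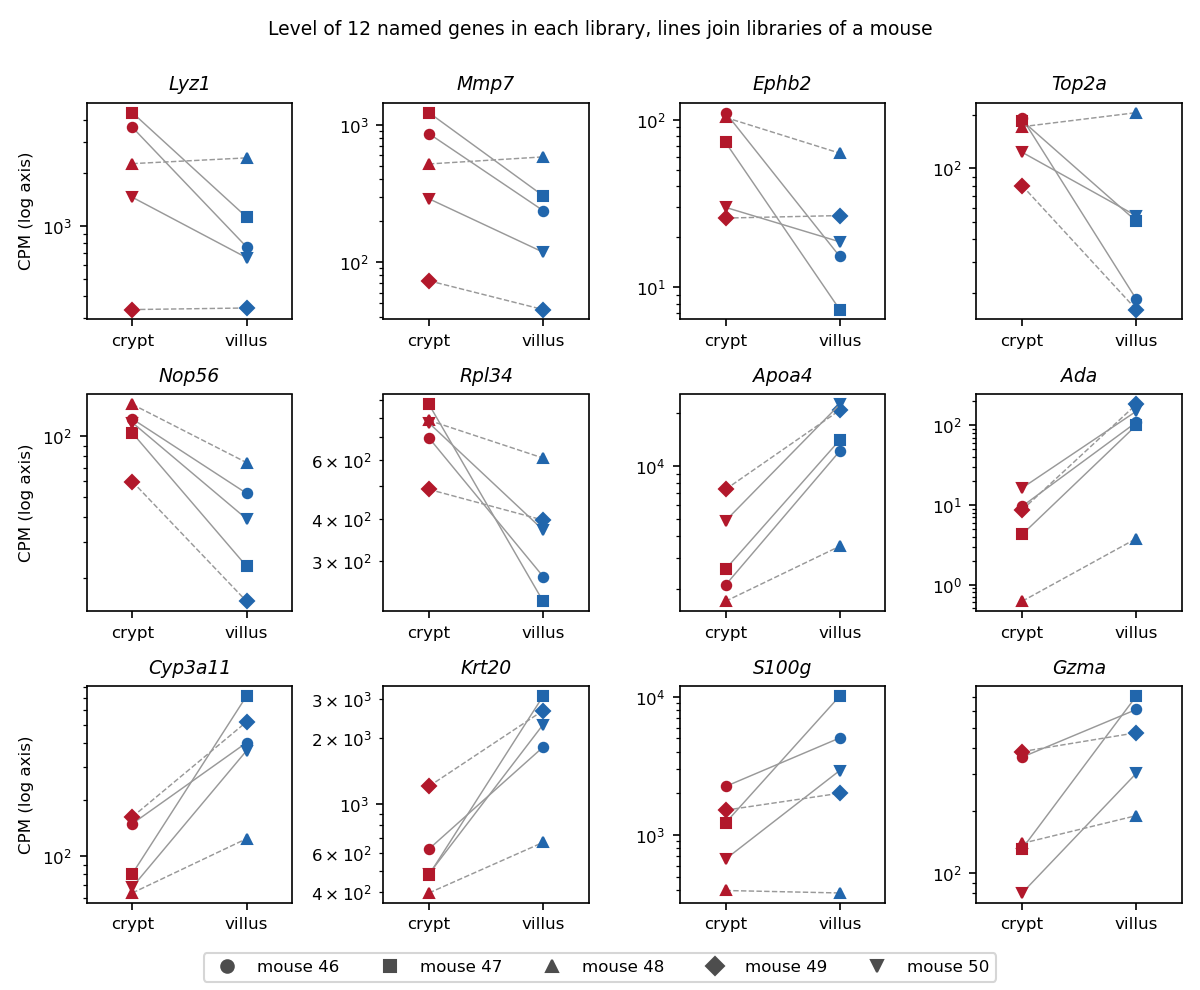
Each panel is a gene, with CPM on a log axis, symbols for mice and lines joining the crypt and villus library of a mouse, dashed for mice 48 and 49. Ada, Apoa4, Krt20 and Cyp3a11 were higher in the villus in 5 of 5 mice, whereas Lyz1 was nearly level within mice 48 and 49.

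Goblet cell genes had a median of -0.47, with 2 of 8 higher in the villus (2 of 8 in the 3 mice; 0 as unpaired groups). Zg16, a lectin of mucus granules, measured 967, 1041, 2187, 2156 and 985 CPM and 2388, 1995, 1041, 3647 and 2506 CPM (-0.69 ± 0.195, adjusted p = 0.0234, and -1.12, adjusted p = 0.000235, in the 3 mice), with the reverse order in mouse 48. Clca1, a mucus metalloprotease, was the other (-0.92 ± 0.208, adjusted p = 0.00133, and -1.18, adjusted p = 0.000614, in the 3 mice), and Muc2, the gel-forming mucin, did not pass (-0.49 ± 0.242, adjusted p = 0.426, and -0.46, adjusted p = 0.637, in the 3 mice). No gene passed among 14 enteroendocrine, 9 tested tuft cell and 11 secretory lineage and Notch genes in the 5 or in the 3 mice.

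Interferon-stimulated genes, a list added after the largest differences had been seen, were higher in the villus for 10 of 30 and in the crypt for 0 (12 and 0 in the 3 mice; 5 and 0 as unpaired groups), with a median of -1.0. Rsad2, the antiviral enzyme viperin, measured 13.8, 1.42, 8, 5.32 and 3.98 CPM and 53.5, 104, 14, 56.6 and 21.6 CPM, with no overlap between the compartments (-2.96 ± 0.435, adjusted p = 1.13e-08, and -3.24, adjusted p = 3.95e-07, in the 3 mice). Ubd, a ubiquitin-like modifier, measured 55.7, 20.2, 15.4, 104 and 47.2 CPM and 366, 244, 9.44, 165 and 149 CPM (-1.9 ± 0.274, adjusted p = 5.39e-09, and -2.51, adjusted p = 1.24e-11, in the 3 mice). Ifit1bl2 (-1.73 ± 0.264, adjusted p = 6.3e-08, and -1.86, adjusted p = 1.34e-06, in the 3 mice) and Oasl1 (-1.7 ± 0.297, adjusted p = 5.4e-06, and -2.1, adjusted p = 6.11e-06, in the 3 mice) were called as well. For Ubd and Oasl1 the villus was higher in mice 46, 47, 49 and 50 and not in mouse 48.

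Of 18 genes listed for T cells and intraepithelial lymphocytes 7 were higher in the villus and 0 in the crypt, with a median of -0.7. In the 3 mice these were 7 and -0.97, and 1 gene passed as unpaired groups. The list included the butyrophilin-like genes Btnl1, Btnl2, Btnl4 and Btnl6, which are not T cell markers. Its count, median and sum are therefore not those of lymphocyte genes alone. Cd3e, a chain of the T cell receptor complex, measured 5.69, 11.1, 8.93, 7.98 and 12.3 CPM and 50.3, 24.5, 13.2, 50.2 and 39.6 CPM, with no overlap in 5 mice (-1.83 ± 0.419, adjusted p = 0.0015, and -1.79, adjusted p = 0.0162, in the 3 mice). Gzma, a granzyme, measured 361, 131, 139, 384 and 80.3 CPM and 612, 710, 189, 473 and 302 CPM (-1.16 ± 0.217, adjusted p = 3.02e-05, and -1.62, adjusted p = 1.17e-06, in the 3 mice). Ccl25, the chemokine that draws T cells to the small intestine, was higher in the crypt without overlap, at 68.9, 39.8, 32.6, 34.9 and 30.7 CPM and 5.23, 21.5, 22.7, 8.51 and 19.7 CPM (1.28 ± 0.367, adjusted p = 0.0244, and 1.48, adjusted p = 0.0342, in the 3 mice). Of 12 B cell and plasma cell genes 3 were higher in the crypt and 0 in the villus (3 in the 3 mice; 0 as unpaired groups, also without the 2 mixed libraries), with a median of 0.28. Their summed level was 8459, 10058, 8207, 12118 and 8166 CPM in the crypts and 8736, 8863, 10734, 5931 and 9101 CPM in the villi, higher in the villus in mice 46, 48 and 50. Cd79a, a signalling chain of the B cell receptor, was highest in mouse 50, at 47.6, 49.4, 34.8, 114 and 284 CPM and 11.3, 28.2, 50.7, 7.66 and 139 CPM (1.13 ± 0.285, adjusted p = 0.00644, and 1.21, adjusted p = 0.0196, in the 3 mice). Of 20 myeloid and antigen presentation genes 0 were called in the 5 mice and 1 in the 3 (Lyz2, 1.33 ± 0.436, adjusted p = 0.0578).

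Smooth muscle genes were higher in the crypt. Of 13 smooth muscle genes 8 were higher in the crypt and 0 in the villus, with a median of 0.98 (9 and 1.75 in the 3 mice; 3 as unpaired groups). Their summed level was 4797, 4572, 5403, 2059 and 3244 CPM in the crypts and 1541, 2106, 3899, 2023 and 1699 CPM in the villi. Actg2, enteric smooth muscle actin, measured 85.7, 117, 151, 56.5 and 133 CPM and 6.44, 11.1, 62.9, 15.7 and 36 CPM, higher in the crypt of every mouse (2.11 ± 0.299, adjusted p = 2.79e-09, and 2.71, adjusted p = 5.03e-09, in the 3 mice). Des, muscle desmin (1.64 ± 0.237, adjusted p = 6.91e-09, and 1.97, adjusted p = 2.23e-08, in the 3 mice), and Tagln, the actin binder transgelin (1.34 ± 0.214, adjusted p = 2.99e-07, and 1.97, adjusted p = 4.75e-10, in the 3 mice), were called too. Fibroblast and matrix genes were higher in the crypt for 5 of 17 (7 of 17 in the 3 mice; 0 as unpaired groups), among them Dpt, the matrix protein dermatopontin (1.25 ± 0.244, adjusted p = 9.02e-05, and 1.89, adjusted p = 2.63e-07, in the 3 mice). The smooth muscle sum was higher in the crypt in 5 of 5 mice and the fibroblast and matrix sum, at 1913, 2240, 2020, 1196 and 1907 CPM in the crypts and 1120, 1371, 2088, 1433 and 1519 CPM in the villi, was higher in the crypt in mice 46, 47 and 50. The part of these cells in the crypt lists above was not tested. Of 13 endothelial genes 0 passed, and of 17 neuron, glia and pacemaker genes 0 passed in the 5 mice and 1 in the 3 (Vip, 1.71 ± 0.587, adjusted p = 0.0801).

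Pancreatic RNA was present in most libraries and did not follow the compartment. The summed level of 18 pancreatic acinar genes was 9130, 9034, 49743, 18377 and 41.7 CPM in the crypts and 23882, 6351, 11588, 47947 and 47.8 CPM in the villi, with 0 of 18 called. Mouse 50 was nearly free of it in both compartments, while the libraries labelled crypt of mouse 48 and villus of mouse 49 were the highest. Its part in the differences within a mouse was not tested. Of 4 tested adipocyte genes 1, Cidec, a lipid droplet protein, was higher in the villus (-2.07 ± 0.485, adjusted p = 0.00212, and -2.81, adjusted p = 0.000933, in the 3 mice). Brunner's gland, islet, red blood cell and gastric genes gave 0 calls in both the 5 and the 3 mice, and their sums were at most 196 CPM in any of the 10 libraries.

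**Figure D4:**
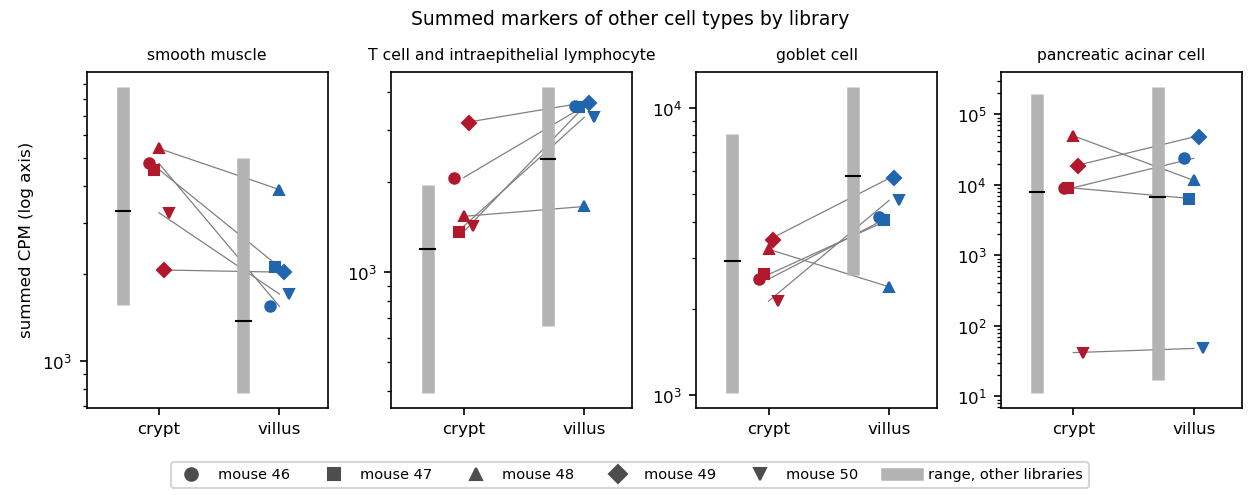
Summed CPM of 4 marker lists on log axes, with each symbol a library, lines joining the libraries of a mouse and grey bars the range of the other libraries of each compartment. Smooth muscle was higher in the crypt in 5 of 5 mice. Sums of the T cell and intraepithelial lymphocyte list, which includes butyrophilin-like genes, were higher in the villus in 5 of 5 mice. Goblet cell sums were higher there in mice 46, 47, 49 and 50, and pancreatic acinar sums ran from 41.7 to 49743 CPM across both compartments.

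The probes with the largest fitted differences on the crypt side included, apart from Actg2, those of Ighv1-47, Mycbp2, Htra3, Madcam1, Synm, Shcbp1 (both its probes), Rims1, Rad54b and Exo1. Ighv1-47, an immunoglobulin heavy chain V segment, measured 3, 4.85, 227, 446 and 3.23 CPM and 0, 4.36, 24.8, 1.28 and 2.4 CPM, and its difference of 3.91 ± 0.487, adjusted p = 2.64e-12 did not pass without mice 48 and 49 (0.69 ± 1.19, adjusted p = 0.923). Synm, a muscle intermediate filament protein, measured 123, 98.9, 141, 18.6 and 61.9 CPM and 10.1, 5.36, 81.7, 7.23 and 14.6 CPM (2.07 ± 0.322, adjusted p = 1.26e-07, and 3.16, adjusted p = 6.63e-10, in the 3 mice). Rad54b, a recombination protein, measured 36.8, 21.8, 18.5, 0 and 37.8 CPM and 0, 0.335, 21.3, 0 and 6 CPM (2.0 ± 0.505, adjusted p = 0.00632, and 3.71, adjusted p = 3.19e-05, in the 3 mice). Exo1, an exonuclease of DNA repair (1.92 ± 0.537, adjusted p = 0.0192, and 2.85, adjusted p = 0.00683, in the 3 mice), Mycbp2, a ubiquitin ligase (2.33 ± 0.576, adjusted p = 0.00447, and 2.5, adjusted p = 0.0138, in the 3 mice), and Htra3, a serine protease (2.26 ± 0.602, adjusted p = 0.0115, and 2.51, adjusted p = 0.0382, in the 3 mice), passed in the 3 mice too. Madcam1, the vascular address for gut lymphocytes, was highest in mouse 50, at 8.09, 1.62, 7.08, 1.99 and 85.4 CPM and 0, 0, 8.09, 0 and 13.4 CPM. Rims1, a protein of synaptic vesicle release, measured 32.9, 34.6, 31.4, 0 and 9.3 CPM and 0, 0, 14.8, 13.2 and 0 CPM, and was at 0 in the villi of mice 46, 47 and 50.

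On the villus side the largest differences were those of Ada, Apol9a, Ugt2b38, Cldn4, Rsad2, Trpv6, Ppm1j, Smpdl3b, Pim1, Gm8221, Sprr2a1 and Cd200r2. Sprr2a1, a small proline-rich protein, measured 6.89, 16.4, 12.9, 30.9 and 63.6 CPM and 91.8, 120, 17.5, 96.2 and 323 CPM (-2.3 ± 0.297, adjusted p = 2.55e-11, and -2.65, adjusted p = 4.02e-11, in the 3 mice). Gm8221 measured 126, 56.2, 23.4, 71.8 and 14 CPM and 242, 674, 99.5, 211 and 175 CPM and was higher in the villus in 5 of 5 mice (-2.32 ± 0.256, adjusted p = 8.68e-16, and -2.55, adjusted p = 1.94e-12, in the 3 mice). Ppm1j, a protein phosphatase, did not overlap between compartments, at 6.89, 0.405, 1.23, 9.64 and 4.93 CPM and 29, 37.5, 13.2, 42.1 and 14.2 CPM (-2.61 ± 0.521, adjusted p = 0.000126, and -2.67, adjusted p = 0.00311, in the 3 mice). Smpdl3b, a sphingomyelinase-like phosphodiesterase, did not overlap either (-2.45 ± 0.641, adjusted p = 0.00953, and -2.51, adjusted p = 0.0879, in the 3 mice). Ugt2b38, a glucuronosyltransferase with close paralogs (-3.24 ± 0.532, adjusted p = 7.37e-07, and -3.87, adjusted p = 1.12e-07, in the 3 mice), Apol9a (-3.37 ± 0.763, adjusted p = 0.00119, and -3.31, adjusted p = 0.0222, in the 3 mice), Pim1, a serine/threonine kinase (-2.36 ± 0.589, adjusted p = 0.00537, and -3.82, adjusted p = 0.000792, in the 3 mice), and Cd200r2, a receptor of the CD200 receptor family (-2.24 ± 0.528, adjusted p = 0.00235, and -2.5, adjusted p = 0.00495, in the 3 mice), completed the group.

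**Figure D5:**
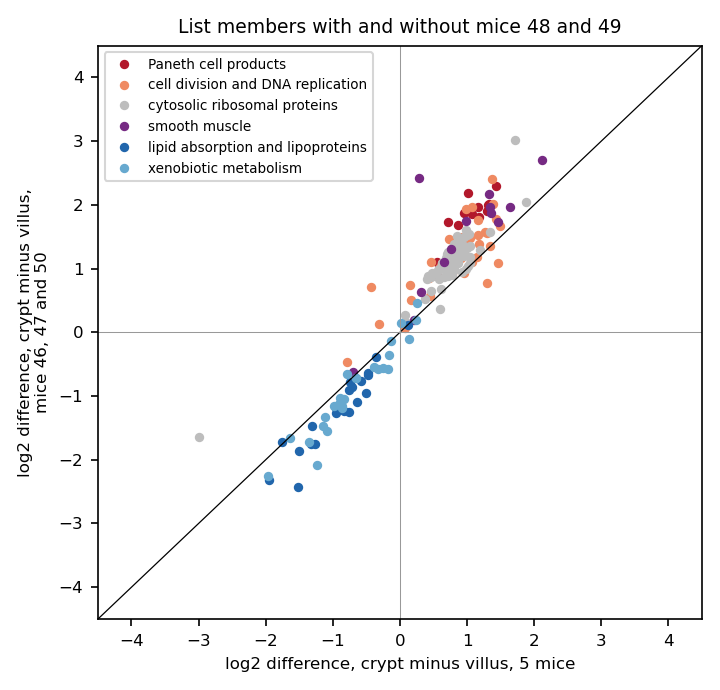
Each point is a member of 1 of 6 gene lists, with its fitted log2 difference (crypt minus villus) in 5 mice on the horizontal axis and in mice 46, 47 and 50 on the vertical axis, and the line marks equal values. Both axes share mice 46, 47 and 50. The median of Paneth cell products was 1.05 in the 5 mice and 1.87 in the 3, and that of lipid absorption genes -0.76 and -1.19.

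The crypt to villus difference was then set against that of other groups, to ask whether it changed with time or with exposure. All 3 contrasts share the 10 untreated day 8 libraries, so they are not independent of each other. At day 91, 10.4% of probes differed between crypt and villus. Against these untreated mice the difference was altered for 77 of 26365 probes (0.292%), 7 greater and 70 smaller (more negative) at day 8, and without mice 48 and 49 for 22 of 27356 (0.0804%). By gene these were 75 and 19. The 75 genes split into 7 greater and 68 smaller, against 24 and 49 with DESeq2 size factors in place of TMM, and the median change over all probes was -0.18 and -0.04 under these scalings. The count was 119 without mouse 46, 140 without mouse 47 and 42 without mouse 48. It was 13 with log10 total count as a covariate, 0 with counts thinned to the smallest total and 0 without the mouse block. Of 17 Paneth cell products 9 had a smaller difference at day 8 (3 of 17 without mice 48 and 49). Defa22 differed by -2.31, adjusted p = 5.15e-10 (-1.48, adjusted p = 0.0171 without mice 48 and 49), its crypt to villus difference being 1.05 at day 8 and 3.36 at day 91. Lyz1 differed by -2.08, adjusted p = 6.31e-08 (-1.33, adjusted p = 0.0674 without these mice). Defa32 (-2.39, adjusted p = 1.28e-09), Gm14851, an α-defensin gene (-2.17, adjusted p = 2.68e-09), and Defa24 (-2.17, adjusted p = 2.68e-09) were the other 3 of the 5 smallest p-values. Of the other lists, 5 of 80 ribosomal protein genes, 2 of 20 stem cell and Wnt target genes and 2 of 18 pancreatic acinar genes had a smaller difference at day 8. These counts were 0, 0 and 4 without mice 48 and 49. So did 1 gene each of the cell division, ribosome biogenesis, claudin and keratin, and epithelial antimicrobial and mucosal defence lists. Without these mice the counts were 1, 0, 0 and 0. In the brush border, lipid, transporter, iron and calcium and tip lists 0 genes were altered. Day 8 and day 91 animals also differed in age, and time and age cannot be told apart.

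In mice given 0.1 ppm for 7 days 7.35% of probes differed between crypt and villus. Against these mice the difference was altered for 21 probes (0.0797%), and 0 without mice 48 and 49 (618 of 27356 at an unadjusted p under 0.05 by edgeR). By gene the count of 18 became 51 without mouse 46 and 2 without mouse 48, and it was 0 without the mouse block. Defa22 (-1.39, adjusted p = 0.00366) and Lyz1 (-1.34, adjusted p = 0.011) were among the 18, with smaller differences in the untreated mice, and neither passed without mice 48 and 49 (-0.59, adjusted p = 1 and -0.62, adjusted p = 1). The 5 smallest p-values belonged to Ighv1-47 (4.69, adjusted p = 0.000488), Rnase1, a pancreatic ribonuclease, with 2 probes (1.85, adjusted p = 0.000605 for the first), and the immunoglobulin V segments Igkv19-93 (2.11, adjusted p = 0.000624) and Igkv5-48 (2.06, adjusted p = 0.000963). At 0.1 ppm all 18 pancreatic acinar genes were higher in the villus, with a median log2 difference of -1.28 against -0.1 in the untreated mice and 2.56 at 180 ppm, and 6 of 18 were altered (0 without mice 48 and 49).

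In mice given 180 ppm for 7 days 8.94% of probes differed between crypt and villus. Against these mice the difference was altered for 184 probes (0.698%), and 98 (0.358%) without mice 48 and 49. By gene these were 170 and 84, and the count was 32 with counts thinned to the smallest total and 1 without the mouse block. All 18 pancreatic acinar genes were higher in the crypt at 180 ppm and all were among those altered, with and without mice 48 and 49, and the 5 smallest p-values were those of Cpb1 (-2.99, adjusted p = 4.18e-14), Cela2a (-2.94, adjusted p = 5.7e-14), Try5 (-2.98, adjusted p = 2.47e-13), Try4 (-2.85, adjusted p = 4.97e-13) and Amy2a4 (-2.72, adjusted p = 4.97e-13), digestive enzymes whose crypt to villus difference was -0.08 for Cpb1 in untreated mice and 2.91 at 180 ppm. Of the 17 Paneth cell products 11 had a smaller difference in untreated mice (3 without mice 48 and 49). On the villus side 5 of 21 lipid absorption genes and 5 of 26 xenobiotic metabolism genes were altered toward a smaller villus excess in untreated mice (2 and 1 without mice 48 and 49). Apoa1 was 1 of these, at 1.45, adjusted p = 0.000246 (0.88, adjusted p = 0.497 without these mice). Among other lists the change was positive for 2 of 18 hydrolases, 2 of 25 transporters and 3 of 12 antimicrobial and mucosal defence genes. Without mice 48 and 49 these counts were 2, 0 and 2. The change was also positive for 2 of 14 fatty acid oxidation, 1 of 6 villus tip, 1 of 79 oxidative phosphorylation and 1 of 30 interferon-stimulated genes. In that order the counts were 0, 0, 1 and 0 without mice 48 and 49. It was negative for 2 of 20 stem cell and Wnt target genes and 3 of 38 cell division genes (1 and 0 without these mice). So it was for 1 of 13 smooth muscle and 1 of 12 B cell and plasma cell genes (0 and 1 without these mice).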

How the data were processed

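Crypt and villus were scraped from fixed duodenal sections of each mouse and measured by TempO-Seq. The authors deposited raw read counts per probe, made per the labels with bcl2fastq 2.17.1.14 and Bowtie. The genome build of the probes is not given in the sources used here, and probes were matched to GENCODE M21 (GRCm38) and RefSeq promoters by symbol. The 10 libraries held 2405384 to 4759008 counts, where 3 counts were worth 0.569 to 1.28 CPM. Floors cover counting error only.

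Counts of all 137 libraries were fitted with edgeR 4.0.16 (quasi-likelihood, TMM scaling, low probes filtered by group), with 1 term per mouse and the crypt minus villus difference in each group. P-values were adjusted by Benjamini-Hochberg over all tested probes, at a threshold of 0.1. The SE is the fitted log2 difference over the square root of F. A gene list takes, for each gene, the probe of highest total count. Mouse numbers in the column names pair the libraries as the same animal. Residuals of same-mouse pairs correlated at a median r of 0.174 (n = 66), those of mice 46 to 50 at 0.047, 0.014, 0.251, 0.225 and 0.63, and those of different mice of a group at -0.042 (n = 269). Where nothing else is stated, a p rests on a spread estimated over the pairs of all groups, most of them exposed to Cr(VI). It does not measure the spread of mice 46 to 50 alone. With the 10 libraries alone the same blocked fit called 313 genes in place of 881.

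The text names list members past the threshold or defining a cell type, the 12 largest differences in each direction with at least 10 CPM on average and 1 direction in mice 46, 47 and 50, and the 5 smallest p-values of each change of the difference. Members and lists were chosen with earlier results of these data known, and the interferon and histone lists after the values were seen. Some genes that this rule selects are not reported here. In 3000 simulated probes, of which 2795 were tested in the crypt against villus comparison, 19 of 100 changed 2-fold and 67 of 100 changed 4-fold were called, 0 with the wrong sign. Alternatives were other normalizations, filters, subsets of libraries, DESeq2 1.42.0, limma 3.58.1 and fits without the mouse block.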

Additional observations from a re-analysis of the deposited data

Results flagged for a closer look

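In 38 of 240 groups of 5 libraries 1 library stood apart from the other 4 by a gap above Dixon's 95% critical ratio of 0.71. For 1 group of independent normal values chance gives about 1 in 20. The 240 groups share 10 libraries, and many are compartment markers. Mixed markers in 1 library each of mice 48 and 49 were known beforehand. The 38 are therefore a description and not a test against that rate. The library labelled villus of mouse 48 was the highest of the villus libraries for crypt stem cell and Wnt target genes at 1057 CPM in sum, smooth muscle at 3899 CPM in sum, Slc12a2 at 120 CPM, Lgr5 at 9.98 CPM, Defa30 at 3588 CPM, Mptx2 at 196 CPM, Top2a at 205 CPM, Cdc20 at 76.3 CPM, Fbl at 515 CPM, Tfrc at 227 CPM, Dpt at 235 CPM, Synm at 81.7 CPM, Ighv1-47 at 24.8 CPM, Rad54b at 21.3 CPM and Exo1 at 15.4 CPM. The library labelled villus of mouse 48 was the lowest of the villus libraries for Alpi at 710 CPM, Klf4 at 28.6 CPM and Hnf4a at 109 CPM. The library labelled crypt of mouse 49 was the highest of the crypt libraries for nutrient transporters at 6617 CPM in sum, Krt20 at 1203 CPM, Treh at 487 CPM, Alpi at 1829 CPM, Apoc2 at 715 CPM, Slc5a1 at 4242 CPM, Slc40a1 at 241 CPM, Cyp3a13 at 494 CPM, Pck1 at 976 CPM, Cldn4 at 11.6 CPM and Cidec at 17 CPM. The library labelled crypt of mouse 49 was the lowest of the crypt libraries for cell division and DNA replication at 877 CPM in sum, cytosolic ribosomal proteins at 15718 CPM in sum and Cdc20 at 20.6 CPM. In other libraries the value that stood apart was that of Cybrd1 in the crypt of mouse 47 (2.83 CPM), that of Ccl25 in the crypt of mouse 46 (68.9 CPM), that of Madcam1 in the crypt of mouse 50 (85.4 CPM), that of Smpdl3b in the villus of mouse 49 (34.5 CPM), that of Gm8221 in the villus of mouse 47 (674 CPM) and that of Lyz2 in the crypt of mouse 50 (148 CPM).

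The crypt to villus difference in untreated mice at day 8, minus that in untreated mice at day 91, passed the test of the change at an adjusted p under 0.1 (edgeR) for Slc12a2 (-1.9), Olfm4 (-1.4), Defa30 (-1.71), Defa23 (-1.46), Defa3 (-1.53), Lyz1 (-2.08), Defa22 (-2.31), Pla2g2a (-1.62), Fbl (-1.47), Krt19 (-1.13), Defa24 (-2.17), Defa32 (-2.39) and Gm14851 (-2.17), on the log2 scale. The crypt to villus difference in untreated mice at day 8, minus that in mice given 0.1 ppm for 7 days, passed the test of the change at an adjusted p under 0.1 (edgeR) for Lyz1 (-1.34), Defa22 (-1.39), Ighv1-47 (4.69), Cela2a (1.32), Cpb1 (1.65), Defa24 (-1.2), Defa32 (-1.33), Gm14851 (-1.24), Igkv19-93 (2.11), Igkv5-48 (2.06), Rnase1 (1.65), another Rnase1 probe (1.85) and another Rnase1 probe (1.73), on the log2 scale. The crypt to villus difference in untreated mice at day 8, minus that in mice given 180 ppm for 7 days, passed the test of the change at an adjusted p under 0.1 (edgeR) for Olfm4 (-1.34), Defa30 (-1.53), Defa23 (-1.88), Defa3 (-1.87), Mmp7 (-1.33), Lyz1 (-1.59), Defa22 (-1.45), Pla2g2a (-1.35), Mptx2 (-1.59), Apoa4 (1.04), Apoa1 (1.45), Slc5a1 (1.13), Ighv1-47 (4.06), Gm8221 (-1.88), Amy2a4 (-2.72), Cela2a (-2.94), Cpb1 (-2.99), Defa24 (-1.49), Defa32 (-1.68), Gm14851 (-1.64), Igkv19-93 (1.79), Igkv5-48 (1.81), Mcm6 (-1.22), Rnase1 (-2.32), Try4 (-2.85), Try5 (-2.61) and another Try5 probe (-2.98), on the log2 scale. Without mice 48 and 49 the change against 0.1 ppm passed for 0 genes. The pancreatic acinar sums of the 10 libraries ran from 41.7 to 49743 CPM, and their part in the changes of Cpb1, Cela2a, Try4, Try5, Amy2a4 and Rnase1 was not tested.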

How the results depend on the processing

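The number of genes differing between crypt and villus was 881 (483 toward the crypt, 398 toward the villus). It depended on the animals and, by edgeR, on the mouse block. Leaving out 1 mouse gave 241 to 1233 genes, 109 to 753 of them toward the crypt and 132 to 480 toward the villus. Without mice 48 and 49 the crypt side rose to 737. By edgeR without the replicate block 164 genes passed (57 and 107). That count was 1636 (1041 toward the crypt) when the library labelled villus of mouse 48 and that labelled crypt of mouse 49 were also left out. DESeq2 on all libraries without the block called 664 genes (328 and 336). Limma with mouse as a random block called 832 (505 and 329). With the 10 libraries alone 313 passed with the block (130 and 183), and 0 without it in either direction by edgeR. The fit with 0 calls held 1346 of 14601 probes at an unadjusted p under 0.05. DESeq2 on the 10 libraries with the block called 638 genes. Thinning all libraries to the smallest total left 560 genes (234 toward the crypt), edgeR's default quasi-likelihood form left 236 toward the villus, and an adjusted p under 0.05 left 313 toward the crypt. The cause of these shifts was not tested.

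The change of the difference against day 91 (75 genes) passed for 147 genes in the default form, 19 without mice 48 and 49, 13 with the total count as covariate, 42 at 0.05, 0 after thinning, 0 without the block and 0 without both the block and the mixed libraries, and for 42 to 140 when 1 mouse was left out. The change against 0.1 ppm (18 genes) passed for 10 in the default form, 0 without mice 48 and 49, 0 after thinning, 0 in both fits without the block, and 2 (without mouse 48) to 51 (without mouse 46) when 1 mouse was left out. That against 180 ppm (170 genes) passed for 84 without mice 48 and 49, 32 after thinning, and 1 and 2 in the fits without the block. At an unadjusted p under 0.05 the thinned, unblocked and 3-mouse fits with 0 calls held 618 to 2214 probes, of 20215 to 27356 tested.

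Of the 98 genes whose crypt to villus difference was recomputed, Cpb1 changed direction under an alternative and the others did not. The other acinar enzymes named for their change were not among the 98. Its difference of -0.08, not called, became 0.05 with mouse as a random block, 0.04 without the block, 0.02 with the 10 libraries alone and no block, 0.01 by DESeq2 on the 10 libraries with the block, and -0.77 to 0.46 when 1 mouse was left out (0.46 without mouse 46 and 0.37 without mouse 49, and called at -0.77 without mouse 48). Without the block 50 of the 98 lost their call, with mouse as a random block of estimated correlation 42 did and 1 gained it, and by DESeq2 without the block 44 did, against 1 lost and 6 gained without mice 48 and 49. The analysis of 6 libraries of mice 46, 47 and 50 alone, which called 725 genes, was chosen after seeing the data. Lgr5, at 0 to 9.98 CPM in the 10 libraries, had a difference of 0.67 ± 1.01 (SE) that was not detectable at this depth.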
